A study of Pomatostomus ruficeps with 28 samples.

Results

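Blood DNA methylation was compared between nestlings of the chestnut-crowned babbler (Pomatostomus ruficeps) that had grown fast and nestlings that had grown slowly before fledging. Of the 28 nestlings sequenced, 27 had a growth rate, and the median rate split them into 13 fast growing nestlings above it and 13 slow growing nestlings below it. The nestling at the median was left out, as was the nestling without a growth rate. Fast nestlings were 14 to 16 days old when bled, and slow nestlings were 14 to 20 days old. Of the 13 fast nestlings, 8 were raised by groups (3 or more carers) and 5 by pairs (the parents alone), against 10 raised by groups and 3 by pairs among the 13 slow nestlings. All were wild birds of a natural population in which some nestlings had been moved between nests at hatching, and the cross-fostering status and the brood of each nestling were not used here. The label of the tissue, blood, could not be checked against cell markers, because only DNA methylation was measured.

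In vertebrates, DNA methylation is the addition of a methyl group to cytosine, mostly where a cytosine is followed by a guanine (a CpG site). Methylation near the start of a gene usually goes with low transcription of that gene, whereas most CpG sites elsewhere in bird genomes are methylated in most cells. Red blood cells of birds keep their nucleus, so blood DNA of a nestling comes mainly from red blood cells. Nestling growth in altricial birds follows an S-shaped curve, in which the relative gain in mass is highest soon after hatching and declines towards fledging.

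Growth rate chose the classes and is given as a description only. The rate averaged 0.0765 ± 0.00248 in fast nestlings and 0.0674 ± 0.00439 in slow nestlings (SD, n = 13 each). The lowest rates among fast nestlings were 0.0731919 and 0.0732017, against 0.0724883 and 0.072214 for the highest rates among slow nestlings, so several birds lay close to the median of 0.0728516. No unit was given for the rate. When the rate was multiplied by age, taken as a power of 10 and multiplied by the hatching mass, the result was within 0.01 g of a multiple of 0.5 g in 21 of 22 nestlings, so the rate was read as the base-10 logarithm of mass at sampling over mass at hatching, divided by age in days. Read this way, mass at sampling was 39.7 ± 3.20 g in fast nestlings (n = 13) and 42.3 ± 3.18 g in slow nestlings (n = 8), and the gain was 2.48 ± 0.163 g per day in fast nestlings and 2.30 ± 0.187 g per day in slow nestlings. On average, fast nestlings were therefore lighter when bled than these 8 slow nestlings, although the fast nestlings had put on more mass per day of age. The other 5 slow nestlings had a growth rate but no hatching mass, so the reading of the rate could not be checked in them.

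Age was the trait in which the classes differed most. Fast nestlings were 14.8 ± 0.801 days old and slow nestlings 16.8 ± 1.88 days old (SD, n = 13 each; difference -1.92 days, two-sided permutation test, p = 0.00388, adjusted p = 0.0233 over 6 traits). No fast nestling was 17 days old or older, against 7 slow nestlings, and 13 fast nestlings and 6 slow nestlings were 14 to 16 days old. Since age is the divisor of the rate as read above, age and growth class are not independent measures. The same holds for hatching mass, which is part of the rate as read. Across the 27 nestlings, growth rate fell with age (Pearson's r = -0.759, permutation p = 1e-05, the smallest these permutations can give, adjusted p = 8e-05 over 8 relations; Spearman's rho = -0.696, p = 9e-05, adjusted p = 0.00072). Without the 2 nestlings of the most extreme age the correlation was r = -0.614 (permutation p = 0.00108). As age enters the rate as read, the p-values for age describe the classes and are no independent evidence.

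The other traits did not separate the classes beyond the spread between nestlings. Hatching mass was 2.92 ± 0.296 g in fast nestlings (n = 13) and 3.08 ± 0.247 g in slow nestlings (n = 8; exact permutation test, p = 0.212, adjusted p = 0.635), and it was missing for 5 slow nestlings but for 0 fast nestlings. Across 22 nestlings growth rate tended to be lower at a higher hatching mass, which did not pass its test (r = -0.405, permutation p = 0.06285, adjusted p = 0.251; rho = -0.373, p = 0.0869, adjusted p = 0.232). The split by carer class did not differ detectably at these numbers (Fisher's exact test, p = 0.673, adjusted p = 0.673). Days since rain averaged 35.0 ± 21.6 in fast nestlings and 41.8 ± 24.9 in slow nestlings (permutation test, p = 0.459). The mean number of reads behind a methylation value was 9.68 ± 1.86 in fast nestlings and 10.04 ± 1.91 in slow nestlings (permutation test, p = 0.636). Fast nestlings had values at 1235630 ± 229503 sites and slow nestlings at 1148890 ± 259174 sites (permutation test, p = 0.371). Adjusted p was 0.673 for the last 3 traits.

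**Figure D1:**
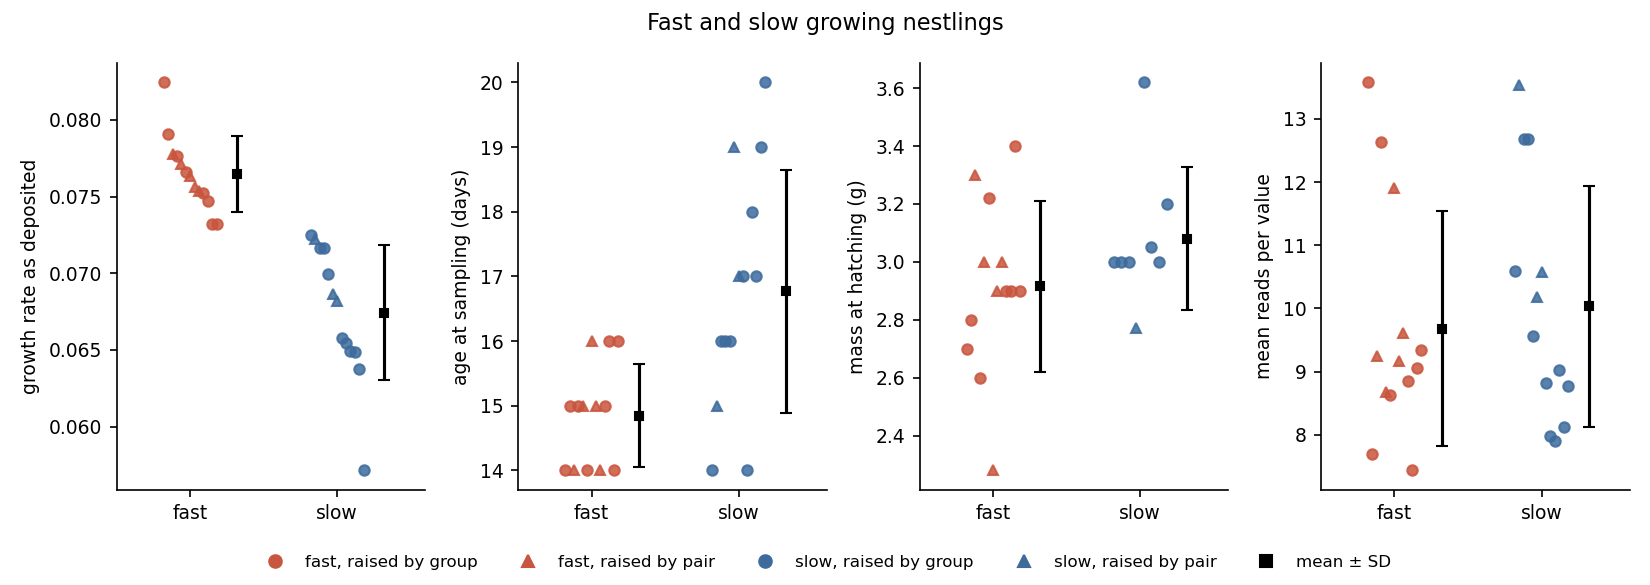
Growth rate (as deposited, no unit given), age (days), hatching mass (g) and mean reads per methylation value in fast nestlings (left in each panel) and slow nestlings (right), 1 point per nestling, with the mean and SD beside the points. Fast nestlings spanned 14 to 16 days of age and slow nestlings 14 to 20 days, whereas the ranges of hatching mass and of reads overlapped broadly.

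Natal groups, which the data give as a code for each nestling, were shared in part. The 13 fast nestlings came from 10 natal groups and the 13 slow nestlings from 11, of which 3 natal groups had nestlings in both classes. Nestlings of a natal group may be siblings, so the spread between nestlings may include family differences, which were not tested.

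The number of reads limited the precision of single values, and their range where reads were few. Total reads behind the values ranged from 5266843 to 19539803 in fast nestlings (median 11726675) and from 7520205 to 17560076 in slow nestlings (median 11015975). Read numbers were recovered from the deposited coverage, and the smallest behind a value was 5 in 27 of the 28 nestlings, below the minimum coverage that the study's filter describes. Which number that filter was applied to was not tested. The share of values resting on fewer than 10 reads had a median of 62.8% in fast nestlings and 56.5% in slow nestlings. In that reading methylated reads counted only from 5 and unmethylated reads only from 10. A value on fewer than 10 reads thus had at least 5 methylated reads and lay above 50%. Lower values were absent at such depth. At 10 reads and slightly more, a value with fewer than 5 methylated reads needed at least 10 unmethylated reads. Some low values were thus absent there too. Many values at the named sites below had 5 methylated reads and lay at this limit. Mean methylation and the site fit were repeated with values on at least 10 reads only. That setting removed the limit only in part and changed the set of sites, so the effect of the limit alone was not tested. For comparison, 5 methylated reads of 10 give a methylation level of 50% with a 95% Wilson interval of 23.7% to 76.3%, which covers counting error only. The slow nestling labelled 79687 stood apart in having values at 629681 sites only, each on at least 10 reads, and the slow nestling labelled 62618 had values at 813513 sites at a mean of 13.5 reads.

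Mean methylation did not separate fast from slow nestlings. Over the 8405 CpG sites with a value in all 26 nestlings, mean methylation in fast nestlings had a lowest value of 73.4%, a median of 76.6% and a highest value of 77.4%. In slow nestlings it had a lowest value of 74.98%, a median of 76.3% and a highest value of 78.3%. The ranges overlapped over most of their length. The lowest 2 values belonged to fast nestlings raised by pairs, and the next, 74.98% and 75.5%, to slow nestlings raised by pairs. A slow nestling raised by a pair also had the highest value, 78.3%. The mean was 76.2 ± 1.15% in fast nestlings and 76.6 ± 0.972% in slow nestlings (SD, n = 13 each), a difference of -0.405 ± 0.418 percentage points (SE; two-sided permutation test, p = 0.346).

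The difference stayed small within subsets of nestlings. Among nestlings raised by groups it was -0.138 points (8 fast against 10 slow; exact permutation test, p = 0.660), and among nestlings raised by pairs it was -0.673 points (5 fast against 3 slow; exact permutation test, p = 0.643). With the comparison kept to birds 14 to 16 days old, it was -0.587 points (13 fast against 6 slow; exact permutation test, p = 0.297). Adjusted for age it was -0.475 ± 0.519 points, and adjusted for mean reads per value -0.458 ± 0.414 points (SE). Leaving out each nestling in turn gave differences between -0.539 and -0.172 points, the last without the fast nestling labelled 79676, which had the lowest mean methylation of all.

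The sign of the difference depended on which sites and values were averaged. Over all sites with a value in each nestling, mean methylation was 85.5 ± 1.91% in fast nestlings and 85.1 ± 1.93% in slow nestlings, a difference of 0.394 points in the other direction (permutation test, p = 0.607). These sites differed in number from nestling to nestling. As deviations from the mean of each tested site, the difference was 0.246 points (permutation test, p = 0.708). Within sites of low (under 20%), intermediate (20 to 80%) and high (over 80%) mean methylation, the fast minus slow differences of these deviations were -0.215, 0.291 and 0.222 points (permutation tests, p = 0.597, 0.787 and 0.690, adjusted p = 0.787 each over the 3 levels). With values on at least 10 reads only, the difference of deviations was -0.173 points over 52022 sites (permutation test, p = 0.632). Weighted by reads over the 8405 shared sites, mean methylation differed by -0.425 points (permutation test, p = 0.409). Which of these choices turned the sign was not tested.

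Used as a continuous measure, growth rate and mean methylation had a correlation that did not pass its test (r = -0.248, permutation p = 0.210, adjusted p = 0.363; rho = -0.205, p = 0.303, adjusted p = 0.453; 27 nestlings, 7968 shared sites, 8 relations). Without the 2 nestlings of the most extreme rate r was -0.208 (permutation p = 0.321). Within nestlings raised by groups r was -0.332 (n = 18, permutation p = 0.178), and within nestlings raised by pairs it was -0.104 (n = 9, permutation p = 0.785). Mean methylation was lower in nestlings with more reads per value by rank (rho = -0.424, permutation p = 0.0280, adjusted p = 0.112; r = -0.219, p = 0.273), which did not pass after adjustment.

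**Figure D2:**
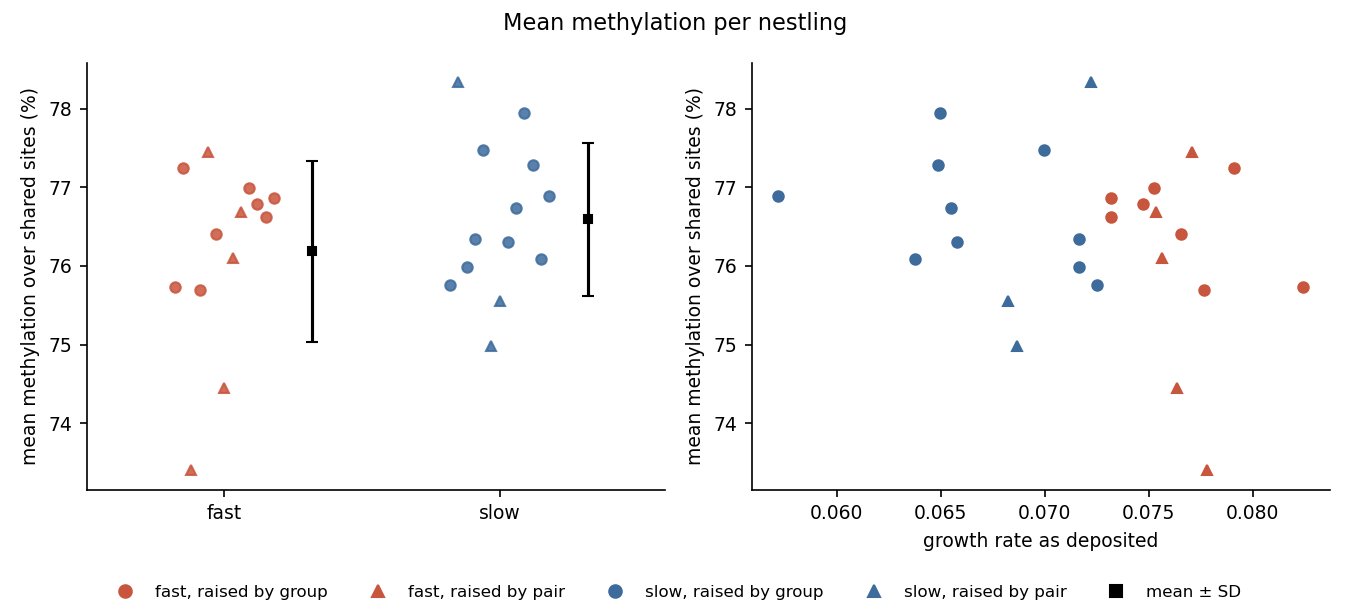
Mean methylation (%) over the 8405 shared CpG sites, by growth class (left panel, fast left of slow, with mean and SD) and against the deposited growth rate (right panel), 1 point per nestling of the 26. Fast nestlings spanned 73.4% to 77.4% and slow nestlings 74.98% to 78.3%, and the vertical axis does not start at 0.

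Natal groups with nestlings in both classes gave no common direction. In natal group CEG mean methylation of the fast nestling was 0.148 points above that of the slow nestling, in EFH the difference was -0.333 points, and in OFS the mean of 2 fast nestlings was 0.486 points above that of 2 slow nestlings. The fast nestling of CEG was raised by a group and was 15 days old, and the slow nestling was raised by a pair and was 17 days old. Mean age in OFS was 14.5 days in fast and 16.5 days in slow nestlings, and both EFH nestlings were 14 days old. Whole profiles were about as far apart within a class as between classes. The mean absolute difference between the methylation profiles of 2 nestlings over the shared sites was 11.5 points for fast with slow nestlings, 11.5 points for fast with fast nestlings and 11.5 points for slow with slow nestlings (between minus within -0.0206 points, permutation test over nestlings, p = 0.233). It was 11.4 points for nestlings of the same natal group (11 pairs) and 11.5 points for nestlings of different natal groups (314 pairs), without a test.

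Single sites differed little in raw means. A value in at least 60% of the nestlings of each class was present at 1403865 sites, 89.7% of the 1564780 sites in the data. The fast minus slow difference of raw means had a median of 0.0396 points, with 5% of sites below -8.36 points and 5% above 8.48 points. The share of sites with the higher mean in fast nestlings was 50.3%. Raw means were at least 25 points apart at 355 sites (0.0253% of sites), with 198 higher (0.0141%) and 157 lower (0.0112%) in fast nestlings. Sites of intermediate methylation were 20.2% of all tested sites and 301 of these 355, and their values also varied more between nestlings of a class (median SD 13.05 points in fast nestlings and 13.1 points in slow nestlings, against 10.1 points in both classes at sites of high methylation).

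Each site was then fitted with a beta regression of methylation on growth class and age, and differentially methylated sites were those with a Wald p, after Benjamini-Hochberg adjustment over all sites, of 0.01 or less and a difference of at least 25 points between predicted means. This gave 72 sites, which is 0.00513% of the sites tested. Methylation was higher in fast nestlings at 33 of them (0.00235% of the sites tested) and lower at 39 (0.00278%). By level, 43 of the called sites had intermediate and 29 had high mean methylation, which were 20.2% and 79.7% of the sites tested. The 0 called sites of low methylation stand against 1142 such sites tested (0.0813%).

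These calls rested on the test and on the predicted means. With the likelihood ratio test of the same model, 0 sites were called (lowest adjusted p = 0.0396, 97634 sites or 6.95% at an unadjusted p under 0.05), and with limma on logit methylation 0 sites were called (lowest adjusted p = 0.649, 64949 sites or 4.63% at an unadjusted p under 0.05). The Wald test placed 114317 sites or 8.14% under 0.05, where p-values spread evenly would give 5%. Raw means differed by 7.75 to 27.2 points at the called sites (median 18.7), and by 25 points or more at 4 of 72. The median number of nestlings with a value was 19 of 26 at the called sites, against 20 at all tested sites, and 1 called site had a value in at least 80% of each class.

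**Figure D3:**
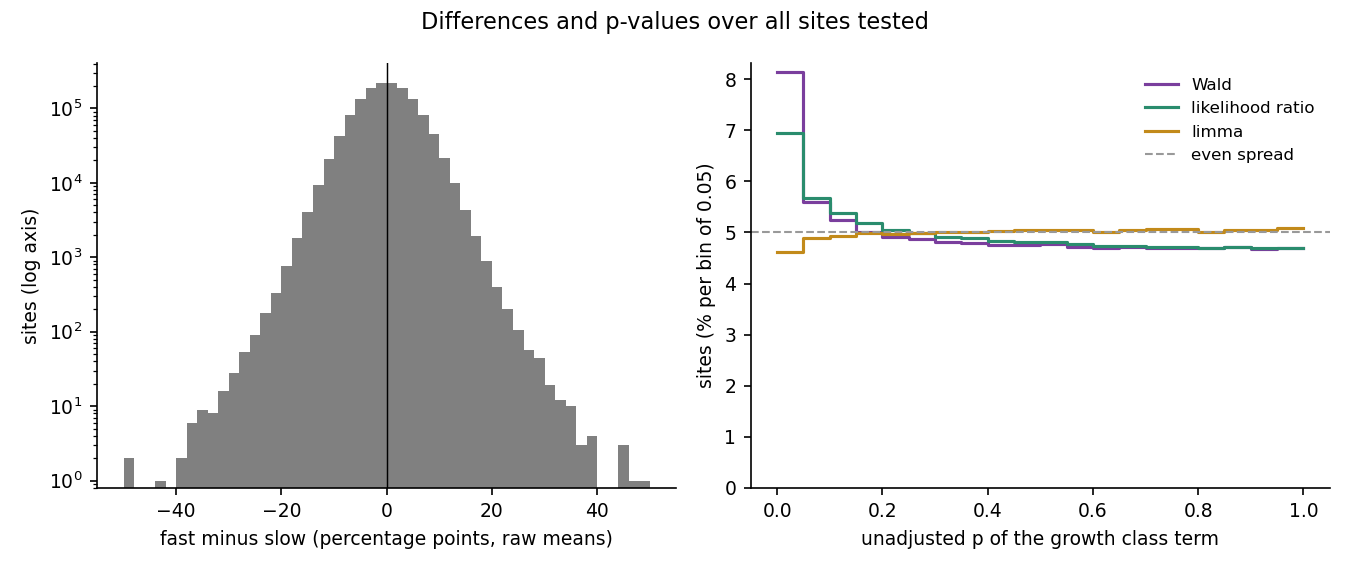
Left, fast minus slow difference of raw mean methylation (percentage points, bins of 2 points) over the 1403865 tested sites, with the number of sites on a log axis. Right, share of sites (%) per bin of 0.05 of the unadjusted p of the growth class term, by the Wald and likelihood ratio tests of the beta regression and by limma, with a dashed line where evenly spread p-values would lie; the first bin held 8.14%, 6.95% and 4.63% of sites.

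Covariates changed which sites were called. Without age in the model 12 sites were called, of which 3 were among the 72. Only 19 of the 72 were called when the comparison was kept to nestlings 14 to 16 days old, which called 201 sites. With carer class added to age 148 sites were called (58 of the 72 among them), and with mean reads per value added to age 122 were called (56 of the 72). The addition of hatching mass left 13 fast and 8 slow nestlings and gave 2498 called sites (19 of the 72), whereas the same nestlings with age alone gave 687 (9 of the 72). Growth rate as a continuous term called 153 sites, of which 1 was among the 72. For the 7 slow nestlings that were older than every fast nestling, age and growth class cannot be told apart.

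The sites described singly are, in each direction, the 5 with the smallest Wald p among sites whose raw and predicted means both differed by at least 25 points. They were chosen by the fit on these same nestlings, so their differences and p-values, permutation p included, describe the sites and are no independent evidence. They are named H1 to H5 (higher in fast) and L1 to L5 (lower in fast), of which H1, H2, H3 and L1 were called. The 2 classes overlapped at all 10 sites. Positions are as deposited, on scaffolds of the chestnut-crowned babbler assembly, and genes near the sites were not analysed here.

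At site H1 (scaffold VYZT01046170.1, position 99082) methylation in 10 fast nestlings had a lowest value of 62.5%, a median of 84.5% and a highest value of 100%. In 12 slow nestlings it had a lowest value of 35.3%, a median of 50% and a highest value of 75%. The upper slow values, from 62.5% to 75% in 5 nestlings, overlapped the lower fast values. Slow nestlings 61667, 62534, 62618, 62642, 62645 and 79633 had 5 methylated reads each, as did fast nestlings 79594 and 79619. These values lay at the limit of the recovered reads, so lower values may be absent. The raw difference was 26.9 points (81.3 ± 12.4% in fast nestlings and 54.3 ± 15.5% in slow nestlings, SD; Wald adjusted p = 0.00253, likelihood ratio adjusted p = 0.237; permutation test, p = 0.00064), on 5 to 22 reads per value. Of 10 tested sites within 500 bases 7 differed in the same direction, and the differences of all 10 lay between -11.5 and 11.4 points. The nearest tested site, 4 bases away, differed by -1.997 points. The adjacent position, 99083, differed by 5.33 points and had a value in 7 fast nestlings, too few for a test.

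At site H3 (scaffold VYZT01014074.1, position 11758) the 11 fast nestlings had a lowest value of 55.6%, a median of 90.0% and a highest value of 100%. The 9 slow nestlings had a lowest value of 42.9%, a median of 60% and a highest value of 71.4%. A single fast nestling, raised by a pair, lay below the slow maximum, and another lay at it. The raw difference was 27.2 points (86.0 ± 13.4% in fast nestlings and 58.8 ± 8.30% in slow nestlings, SD; Wald adjusted p = 0.00298, likelihood ratio adjusted p = 0.244; exact permutation test, p = 0.000179). None of its 3 tested neighbours within 500 bases differed in the same direction, and the position 1 base away differed by -9.74 points.

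Site H2 (scaffold VYZT01012538.1, position 2076) owed its difference to 2 slow nestlings. Methylation in 11 fast nestlings ranged from 87.5% to 100% with a median of 100%. In 8 slow nestlings it ranged from 0% to 100% with a median of 88.2%. The 0% belonged to the slow nestling labelled 79532, with 0 of 10 reads methylated, which allows a level of up to 30%, and the next value was 26.7% in the slow nestling labelled 62618 (4 of 15 reads, 95% Wilson interval 10.9% to 52.0%). The other slow nestlings had 85.7% or more, within or next to the range of fast nestlings. The limits given for 0% and 26.7% cover counting error only, and DNA sequence differences between nestlings were not checked here either. The raw difference was 25.6 points with all nestlings (Wald adjusted p = 0.00277; exact permutation test, p = 0.0149) and 15.2 points without nestling 79532 (unadjusted Wald p = 0.00401).

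Site L1 (scaffold VYZT01017473.1, position 49004) was the called site named among those lower in fast nestlings. The 8 fast nestlings had a lowest value of 45.5%, a median of 70.0% and a highest value of 83.3%. The 9 slow nestlings had a lowest value of 71.4%, a median of 90.9% and a highest value of 100%. The classes overlapped between 71.4% and 83.3%. Fast nestlings 62605, 79513, 79561, 79594 and 79684 had 5 methylated reads each, as did slow nestling 62645. These values lay at the limit of the recovered reads, so lower values may be absent. The raw difference was -25.3 points (65.1 ± 13.1% in fast nestlings and 90.4 ± 11.05% in slow nestlings, SD; Wald adjusted p = 0.00644, likelihood ratio adjusted p = 0.238; exact permutation test, p = 0.00074). Of 17 tested sites within 500 bases 14 were lower in fast nestlings too, and the differences of all 17 lay between -9.65 and 4.54 points. Neighbours in the direction of the named site were 6 of 8 at H2, 20 of 46 at H4 and 11 of 13 at H5. They were 8 of 13 at L2, 11 of 19 at L3, 14 of 23 at L4 and 20 of 33 at L5. Over all tested sites 50.3% had the higher mean in fast nestlings. Neighbouring sites share nestlings and libraries, so these counts are descriptions.

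Site L5 (scaffold VYZT01043304.1, position 12113) had the widest spread in fast nestlings of all 10 sites and was not called. The 8 fast nestlings had 0%, 23.5%, 33.3%, 38.5%, 45.5%, 53.8%, 92.3% and 100%. Of the 10 slow nestlings 8 had 100%, and the others had 91.7% and 88.9%. The value of 0% rested on 14 reads, for which counting error alone allows up to 21.4%. DNA sequence differences between nestlings at this position were not checked. Thus 6 of 8 fast nestlings lay below every slow nestling, and the other two lay within the slow range. Both high values came from fast nestlings raised by pairs, but so did the values of 38.5% and 53.8%. The nestling at 100% shared its natal group, OFQ, with the nestling at 53.8%. The raw difference was -49.7 points (48.4 ± 33.6% in fast nestlings and 98.1 ± 4.15% in slow nestlings, SD; Wald adjusted p = 0.139; exact permutation test, p = 0.00137).

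The position 1 base from site L5 moved the same way. It had a value in 7 fast nestlings, from 20% to 100% with a median of 53.8%, and in 11 slow nestlings, from 66.7% to 100% with a median of 100%. This is a difference of -33.7 points (60.5 ± 27.6% in fast nestlings and 94.2 ± 10.4% in slow nestlings, SD), without a test because fewer than 60% of fast nestlings had a value there. Tested sites within 500 bases of L5 differed by -13.9 to 10.3 points.

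Sites H4, H5, L2, L3 and L4 differed by raw means of 25.4, 25.8, -25.1, -28.4 and -25.1 points and had Wald adjusted p-values of 0.0170, 0.0178, 0.0187, 0.0802 and 0.105. At H4 (scaffold VYZT01037165.1, position 5194) the lowest fast value was 71.4% and the highest slow value 81.8%. At H5 (scaffold VYZT01060757.1, position 21925) the lowest fast value was 70.0% and the highest slow value 71.4%. At L2 (scaffold VYZT01013896.1, position 280897) the highest fast value was 71.4% and the lowest slow value 63.6%. At L4 (scaffold VYZT01032537.1, position 21907) the highest fast value was 72.7% and the lowest slow value 60%. At L4 both classes had several nestlings in the shared range, 2 of 8 fast nestlings and 5 of 10 slow nestlings.

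Site L3 (scaffold VYZT01002030.1, position 120225) resembled L5 in the spread of fast nestlings. Its 10 fast nestlings had a lowest value of 26.7%, a median of 52.8% and a highest value of 90.9%, against a lowest value of 66.7%, a median of 83.3% and a highest value of 100% in 8 slow nestlings. The position 1 base away differed by -19.4 points, with fast nestlings from 0% to 100% and slow nestlings from 33.3% to 100%. 

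The named sites kept their direction under the other settings of the fit that gave them a value, but their predicted differences and calls moved. Of 22 other settings each, H1 was called under 13, H2 under 11, H3 under 12 and L1 under 14. These counts include settings that could not drop a called named site, so they overstate how stable the calls were. Such settings kept the fit and loosened or removed a limit, or added the limit on raw means used to choose the named sites. Leaving out nestling 79687 and summing positions 1 base apart also left the values at H2 and L1 unchanged. The predicted difference at H2 was 32.6 points with age alone and 2.71 points with hatching mass added, which leaves out the slow nestlings labelled 79532 and 62618. With growth rate as a continuous term it was 19.6 points at H1 (31.5 by class) and -15.6 points at L1 (-30.8 by class). At L3 it was -31.5 points in all nestlings with age alone. In the nestlings with a hatching mass it was -20.5 points with age alone and -11.3 points with hatching mass added. Nestlings of a natal group entered the fit as separate replicates. With 1 nestling per natal group and class, 34 of the 72 sites were called, and H1 (28.7 points) and H3 (29.3 points) were no longer among them.

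Single nestlings also moved the called sites across the limit. The largest unadjusted Wald p among the 72 called sites was 5.01e-06. When each nestling was left out in turn, p rose above it for 2 of 22 nestlings at H1 (highest p = 9.21e-06, without the slow nestling 79633), for 1 of 19 at H2, for 3 of 20 at H3 (highest p = 1.31e-05, without the fast nestling 79555) and for 6 of 17 at L1 (highest p = 5.74e-05, without the slow nestling 79633). The raw differences without 1 nestling lay no nearer to 0 than 24.9 points at H1, 25.2 points at H3 and -22.5 points at L1.

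**Figure D4:**
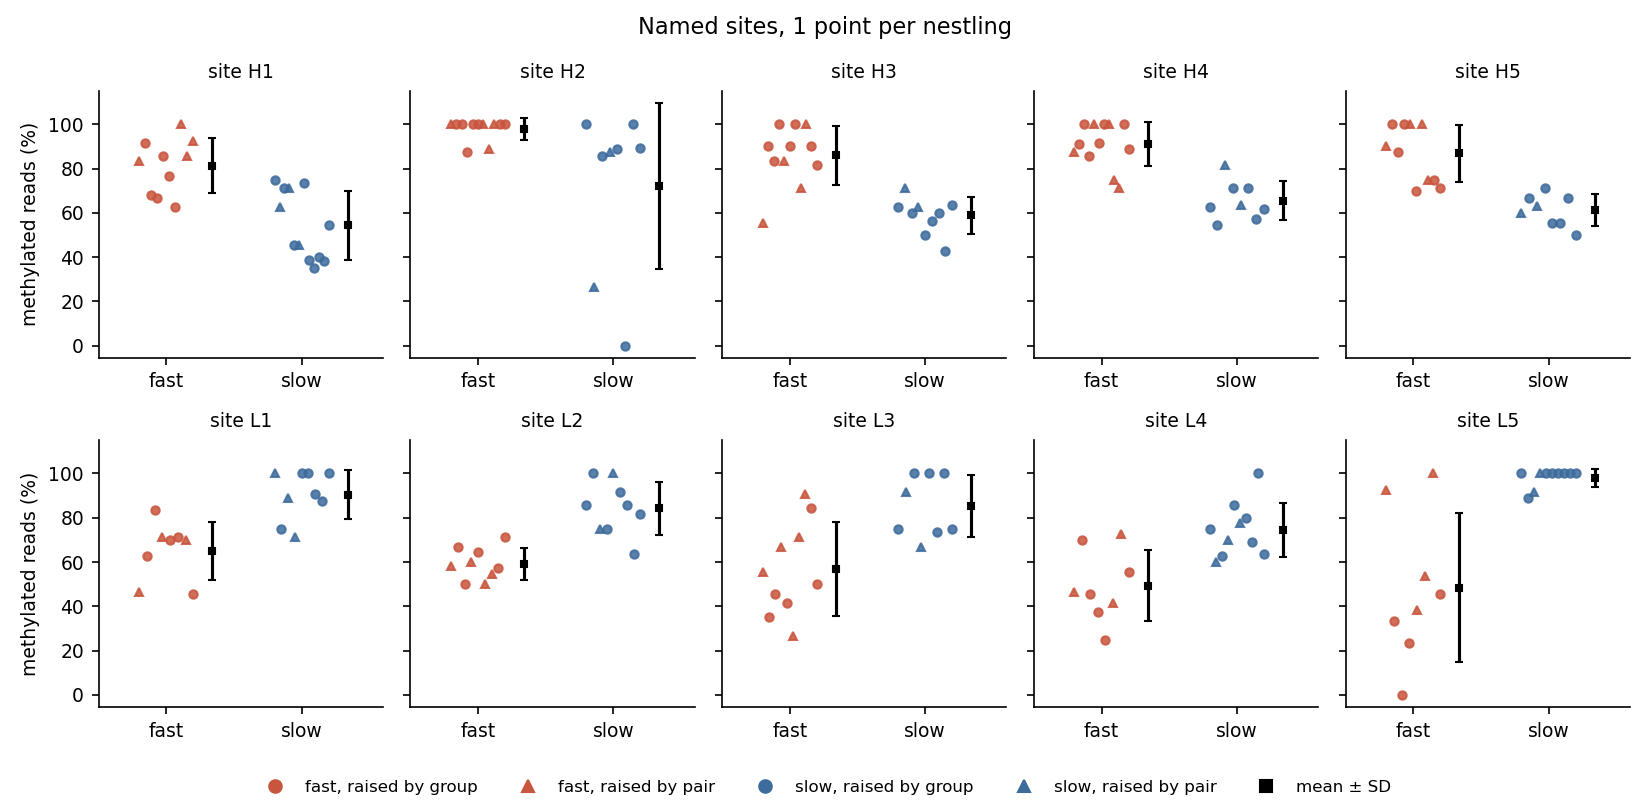
Methylated reads (%) at the 10 named CpG sites, 1 point per nestling with a value, fast nestlings left and slow nestlings right, with the mean and SD beside the points. The difference at H2 rests on slow nestlings at 0% and 26.7%, and at L5 fast nestlings spread from 0% to 100% while slow nestlings lay between 88.9% and 100%.

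Adjacent positions offered a comparison that the calls had not used. In the data 301160 pairs of positions lay 1 base apart and held 38.5% of all sites. Such pairs may be the cytosines of both strands of a CpG, although the study's methods state that strands were collapsed, and this was not checked against a genome here. Over the 252240 pairs with both positions tested, the fast minus slow differences of the 2 positions correlated at r = 0.0549 across pairs and had the same sign in 51.3%. The deviations of single nestlings from the site mean correlated at r = 0.0908 between positions 1 base apart (4947841 values) and at r = 0.338 between positions 2 bases apart (615233 values from 33823 pairs). Sites share nestlings and libraries, so these correlations are descriptions.

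Called sites followed the same pattern. Of the 72 called sites 20 had a tested position 1 base away, and 14 of the 20 positions differed in the direction of the called site. The median difference in that direction was 19.4 points at the called sites, which were chosen for it, and 2.05 points at the adjacent positions (range -9.74 to 15.7 points). Among the 22123 sites with raw means 10 points or more apart and a tested adjacent position, that position differed by a median of 0.778 points in the same direction and had the same sign in 56.0%. When the reads of positions 1 base apart were summed, 50 of 1154258 sites were called, 47 of them at the position of one of the 72. Each summed pair was placed at its lower position, so a match to a called site at the upper position was not counted. Sites without a position 1 base away entered with unchanged values, such as H2 (32.6 points) and L1 (-30.8 points), so this overlap was in part fixed in advance. Sites H1 and H3 were lost there, at predicted differences of 24.1 and 15.3 points, against 31.5 and 32.8 points before.

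**Figure D5:**
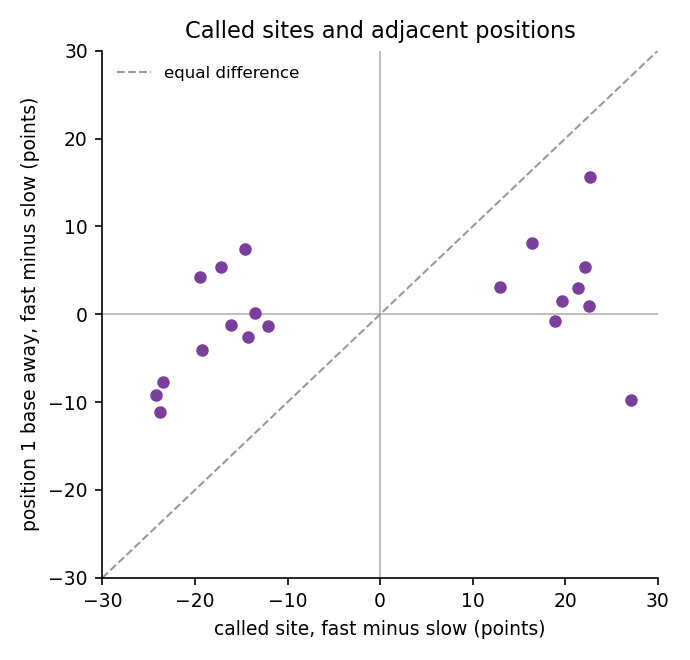
Fast minus slow difference of raw mean methylation (percentage points) at the 20 called sites with a tested position 1 base away (horizontal axis) and at that position (vertical axis), with a dashed line of equal differences. The called sites were chosen for a difference, and 14 of 20 adjacent positions had the same sign at a median of 2.05 points.

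Averages over windows of 1 kb did not separate the classes. Of 96241 windows with at least 5 sites, 0 had a limma adjusted p of 0.01 or less (0% of windows, lowest adjusted p = 0.248), and 4517 windows or 4.69% had an unadjusted p under 0.05. The fast minus slow difference had a median of 0.163 points, with 5% of windows below -3.63 points and 5% above 3.92 points. No window of 2 kb held 2 or more of the 72 called sites, so no differentially methylated region of 3 or more sites was present.

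The windows with the smallest p were lower in fast nestlings. On scaffold VYZT01122945.1, bases 1 to 1000, 12 fast nestlings ranged from 78.9% to 91.1% over 5 sites, against 88.4% to 100% in 10 slow nestlings. The classes overlapped in few birds, and the difference was -10.02 points (85.1 ± 3.99% in fast nestlings and 95.1 ± 3.79% in slow nestlings, SD; limma p = 8.09e-06, adjusted p = 0.260, and p = 4.05e-06 without age). On scaffold VYZT01058170.1, bases 203001 to 204000, the means were 80.4 ± 4.13% in 11 fast nestlings and 88.4 ± 5.79% in 12 slow nestlings over 9 sites (limma p = 5.15e-06, adjusted p = 0.248). On scaffold VYZT01060144.1, bases 37001 to 38000, the means were 80.6 ± 7.06% in 12 fast nestlings and 86.4 ± 12.02% in 9 slow nestlings (limma p = 3.63e-06, adjusted p = 0.248), and the unadjusted p was 0.0513 without age in the model. The 3 windows with the smallest p in the other direction were 5.31 to 12.5 points higher in fast nestlings (limma adjusted p = 0.815 each).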

How the data were processed

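Enzymatic methyl-seq libraries were made from blood DNA. Per the study's methods, HTStream trimming was followed by alignment and methylation calling with Bismark against the genome of the species (versions not given in the sources used here), and sites were filtered on coverage, presence and variation, so that sites of little variation were removed. The percent values deposited by the authors are methylated reads over all reads per site and nestling, not normalized. Counts of methylated and unmethylated reads were deposited for 1 nestling. Reads of the others were recovered from the deposited coverage, on the reading (checked to 1e-06) that it adds methylated reads counted 2 times and unmethylated reads, each only where it reaches 10. Read numbers under 10 in 27 nestlings differ from the study's stated removal of sites under 10-fold coverage. The file has 2 more columns with values of single nestlings, which no step used. Growth rate, age, hatching mass and days since rain were other deposited values.

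Beta regressions (logit link, proportions squeezed away from 0 and 1 as (y(n-1)+0.5)/n, age as covariate) were fitted by maximum likelihood and compared with glmmTMB 1.1.9, whose growth term was within 0.01 at 72 of 72 called sites. Adjusted p-values of single sites are from the Wald test unless the likelihood ratio test or limma 3.58.1 (R 4.3.3) is named. Those of windows are from limma. Those of traits, correlations and methylation levels are Benjamini-Hochberg values of the tests named with them. Single values were compared with two-sided permutation tests of 100000 resamples, exact where a class had fewer than 10 nestlings. Python 3.11.15, numpy 2.4.6, scipy 1.17.1 and numba 0.67.0 were used. Of the scripts, only the beta regression was tested on simulated data. Its pass limits were set on the growth term and the likelihood ratio test, not on the Wald test. The 25 other settings changed covariates, test, filters, depth and nestlings. Named sites were the 5 of smallest p per direction among those 25 points apart in raw and predicted means, and named windows the 3 of smallest p. The comparison, rules and lists were chosen with earlier results of these data known. A list of growth genes was set but not analysed, since no annotation was used here.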

Additional observations from a re-analysis of the deposited data

Results flagged for a closer look

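Among the traits and mean methylation of each growth and carer class with 4 to 10 nestlings, 2 values stood apart from the rest of their class, where chance marks about 1 in 20 classes. The slow nestling labelled 62642, raised by a group, had a hatching mass of 3.62 g, the highest of all. The fast nestling labelled 62525, raised by a pair, had a mean of 11.9 reads per value, the highest among fast nestlings raised by pairs. Fast nestlings 79513 and 79578, raised by groups, had 13.6 and 12.6 reads. Nestling 62525 also had the lowest hatching mass of the fast nestlings, 2.28 g.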

How the results depend on the processing

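Of the results, the number of called sites (72) changed most with the setting, and 2 of 25 other settings stayed within 1.5 times of it. These were the removal of nestling 79687 (82 sites) and the summing of positions 1 base apart (50 sites), both chosen after seeing the data. The summing left the values of sites without such a position unchanged. Counts fell to 0 with the likelihood ratio test (also without the effect filter, and also without age, both chosen after seeing the data), with limma, with values in 80% of each class (214474 sites) and with values in every nestling (8405 sites), to 2 with at least 10 reads per value (52022 sites), to 4 with raw means 25 points apart as well and to 12 without age. They rose to 122 with mean reads added to age, 148 with carer class, 248 with both, 133 with days since rain (chosen after seeing the data), 153 with a continuous growth rate, 229 at an adjusted p of 0.05, 230 with values of 0 and 1 moved inwards by 0.001 only, 236 with 1 nestling per natal group and class, 519 within nestlings raised by groups, 674 at 10 points and 713 without an effect filter. They were 2498 with hatching mass added to age, and 687 in those nestlings with age alone and 201 at 14 to 16 days of age (both chosen after seeing the data). The cause of these shifts was not tested, and some settings also had fewer sites or nestlings. The share of sites with an unadjusted p under 0.05 stayed within 1.5 times of 8.14% except with limma (4.63%).

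The difference in mean methylation (-0.405 points) turned to 0.394 points over all sites of each nestling (permutation test, p = 0.607) and to 0.246 points as deviations over all tested sites (permutation test, p = 0.708), and lay between -0.539 and -0.172 points with each nestling left out. It was -0.173 points as deviations of values on at least 10 reads (permutation test, p = 0.632) and -0.425 points weighted by reads (permutation test, p = 0.409). The difference in mean reads per value was 0.0601 in favour of fast nestlings over means of natal groups (permutation test, p = 0.941; chosen after seeing the data), against -0.354 over nestlings. Called windows stayed at 0 under all 6 other settings of that fit. The labels give no numbers that pair fast with slow nestlings, and natal group was not fitted as a block, since 3 natal groups had nestlings in both classes.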
